A study of Mus musculus with 18 samples.

Results

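The precursors of 8 striatal neuropeptides were followed across 4 groups of mice: Penk, Pdyn, Tac1, Sst, Npy, Cartpt, Cck and Nts. Every probe set annotated to only 1 of these symbols was taken, which gave 8 probe sets, 1 per gene, of 22690 on the array, and no probe set carried a member together with another symbol. They are 8 of 12393 genes with a probe set of their own. All 8 passed a filter on dim values (log2 above 4 in at least 3 arrays), as did 12674 probe sets in all. A neuropeptide is made as a large precursor, cut by convertases and packed into dense-core vesicles, so the mRNA measured here encodes the precursor and not the released peptide. In the striatum the opioid and tachykinin precursors mark the projection neurons. Enkephalin marks the D2 receptor class of the indirect pathway, and dynorphin and substance P mark the D1 receptor class of the direct pathway. Somatostatin and neuropeptide Y are made by scattered interneurons, and CART, cholecystokinin and neurotensin by smaller or mixed groups of cells, some with cell bodies outside the striatum.

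The series asks how loss of CaMKIV, a nuclear kinase that phosphorylates the transcription factor CREB, changes the response of the striatum to cocaine, a blocker of the dopamine transporter. The groups were 6 mutant mice given cocaine, 3 mutant mice given saline, 6 control mice given cocaine and 3 control mice given saline. Cocaine was 25 mg/kg into the peritoneum, and all animals were littermates of 10 to 20 weeks that were caged singly, handled beforehand and killed 1 h after the injection. Each array held striatum with the nucleus accumbens from 1 animal, so neurons of both areas and of all classes were measured together. The sources used here do not state the mutant allele, its cell type or any Cre driver. Genotype and treatment rest on the sample titles, since the separate description line named the title's genotype and treatment in 0 of 18 samples. By their titles 12 animals, 3 from every group, carried Arabic numbers, and the other 6, all given cocaine, carried Roman ones.

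Before the peptides, the labels were checked against the arrays. The brightest probe set of Camk4, which encodes CaMKIV, averaged 7.27 ± 0.27 in mutant cocaine mice, 7.30 ± 0.16 in mutant saline mice, 7.65 ± 0.10 in control cocaine mice and 7.65 ± 0.06 in control saline mice (log2 value, SD, n = 6, 3, 6 and 3). The mutant minus control difference was -0.39 ± 0.10 after cocaine (limma unadjusted p = 0.0019, Benjamini-Hochberg adjusted p = 0.427), so it did not pass the test, and after saline it was -0.35 ± 0.15 (limma unadjusted p = 0.0297, adjusted p = 1.00). Whether these probes lie in the mutated stretch is not known. Mutant cocaine replicate 6, at 7.69, lay inside the range of the 9 control mice, 7.52 to 7.76, while the other 8 mutant mice lay at 6.85 to 7.47. Control cocaine mice averaged 7.74 in the Roman-numbered and 7.56 in the Arabic-numbered animals. Replicate 6 is Roman-numbered and lay below the 3 Roman-numbered control mice, at 7.72 to 7.76. This probe set thus does not settle its genotype label. In a dimmer Camk4 probe set replicate 6, at 6.06, and mutant cocaine replicate 4, at 6.10, also lay inside the control range of 5.36 to 7.00. Against the Roman-numbered control mice alone, at 6.09 to 7.00, replicate 6 lay below the range and replicate 4 inside it. Without replicate 6, 0 of the 8 precursors passed the test in any of the 6 comparisons, and values that moved are given beside the results. The immediate early genes Fos, Egr2 and Arc were 23.4-fold, 11.0-fold and 7.78-fold higher after cocaine than after saline, averaged over genotypes, and each passed the test. The mean log2 value of these 3 genes with Junb, Nr4a1 and Dusp1 was 8.65 in mutant cocaine replicate 1. It was 10.19 to 11.76 in the other cocaine animals and 7.01 to 8.11 in saline animals. With each array left out in turn, this one included, 0 of the 8 precursors passed the test. Mutant cocaine replicate 5 stood apart from the other arrays, with a mean correlation of 0.966 with them and a gap of 3.59 log2 units between the 3′ and 5′ actin probe sets, against 1.57 to 2.55 in the other 17. Without it 0 of the 8 precursors passed the test in any comparison, as with it. Of the markers shared by all spiny projection neurons, 6 of 8 listed were on the array and passed the filter, among them Ppp1r1b, the dopamine-regulated phosphatase inhibitor DARPP-32.

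CREB binds the cAMP response element (CRE), whose full form is TGACGTCA. The promoters that hold it are shown because CREB is a known substrate of CaMKIV. RefSeq windows on GRCm38.p6, from 250 bases before to 50 bases after the gene start, were given for 7 of the 8 genes, with Penk the gene without one. The full CRE was found in 2 of these 7, Sst and Cartpt, and in 2.03% of the 27025 mouse genes with a window (588 of 32851 windows). Both windows are printed 5′ to 3′ on the gene's strand with the CRE in capitals. That of Sst lies on the minus strand at chr16:23890795-23891094, and that of Cartpt on the minus strand at chr13:99900634-99900933.
Sst: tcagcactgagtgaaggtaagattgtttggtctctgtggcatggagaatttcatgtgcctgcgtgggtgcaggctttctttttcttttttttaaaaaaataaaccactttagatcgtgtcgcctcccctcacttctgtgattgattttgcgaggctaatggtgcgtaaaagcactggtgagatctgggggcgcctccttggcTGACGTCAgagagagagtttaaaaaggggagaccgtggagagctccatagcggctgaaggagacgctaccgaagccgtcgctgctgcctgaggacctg
Cartpt: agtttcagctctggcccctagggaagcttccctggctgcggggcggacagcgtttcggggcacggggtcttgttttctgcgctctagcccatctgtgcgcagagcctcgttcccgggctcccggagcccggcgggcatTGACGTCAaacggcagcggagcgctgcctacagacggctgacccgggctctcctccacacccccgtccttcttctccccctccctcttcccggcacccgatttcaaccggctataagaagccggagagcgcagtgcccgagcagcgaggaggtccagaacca
The CRE of Sst began 48 bases before the gene start, and that of Cartpt 112 bases before it.

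The short CRE, TGACG on either strand, was found in 5 of the 7 genes, and in 23% of all genes with a window (20.8% of windows). A full CRE holds the short form on both strands, so Sst and Cartpt count here too. Tac1 held it at 197 and 43 bases, Cck at 47 and Nts at 166 bases before the gene start. These stretches of 45 bases show it in capitals as it reads on the gene's strand, where CGTCA is the reverse complement. They lie at chr6:7554844-7554888 and chr6:7554998-7555042 on the plus strand for Tac1, at chr9:121495717-121495761 on the minus strand for Cck and at chr10:102490560-102490604 on the minus strand for Nts.
Tac1 distal: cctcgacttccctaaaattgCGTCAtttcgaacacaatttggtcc
Tac1 proximal: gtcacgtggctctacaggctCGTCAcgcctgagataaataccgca
Cck: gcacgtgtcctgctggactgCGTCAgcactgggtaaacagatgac
Nts: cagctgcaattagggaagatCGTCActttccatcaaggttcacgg
These letters were not in the windows of Pdyn and Npy. A match describes the letters of a window and does not show that a factor binds there.

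None of the 8 precursors passed the test after cocaine, averaged over genotypes, where 0.221% of all tested probe sets did (28, all higher). None had an unadjusted p under 0.05 either, against 645 of all tested probe sets (5.09%). At such a share, 0 of 8 does not set the precursors apart. The ordinary linear model without moderation called 0 of the 8 and 17 of all. The differences of the 8 ran on both sides of 0, with 5 above and 3 below, and their median was 0.03 log2 units, against 4.0e-05 over all tested probe sets. The test was limma's moderated linear model over all tested probe sets with a Benjamini-Hochberg adjusted p under 0.05 as the threshold. Saline was given to Arabic-numbered animals only, so the size of each averaged cocaine difference rests on those 12 arrays, mutant cocaine replicate 1 among them.

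**Figure D1:**
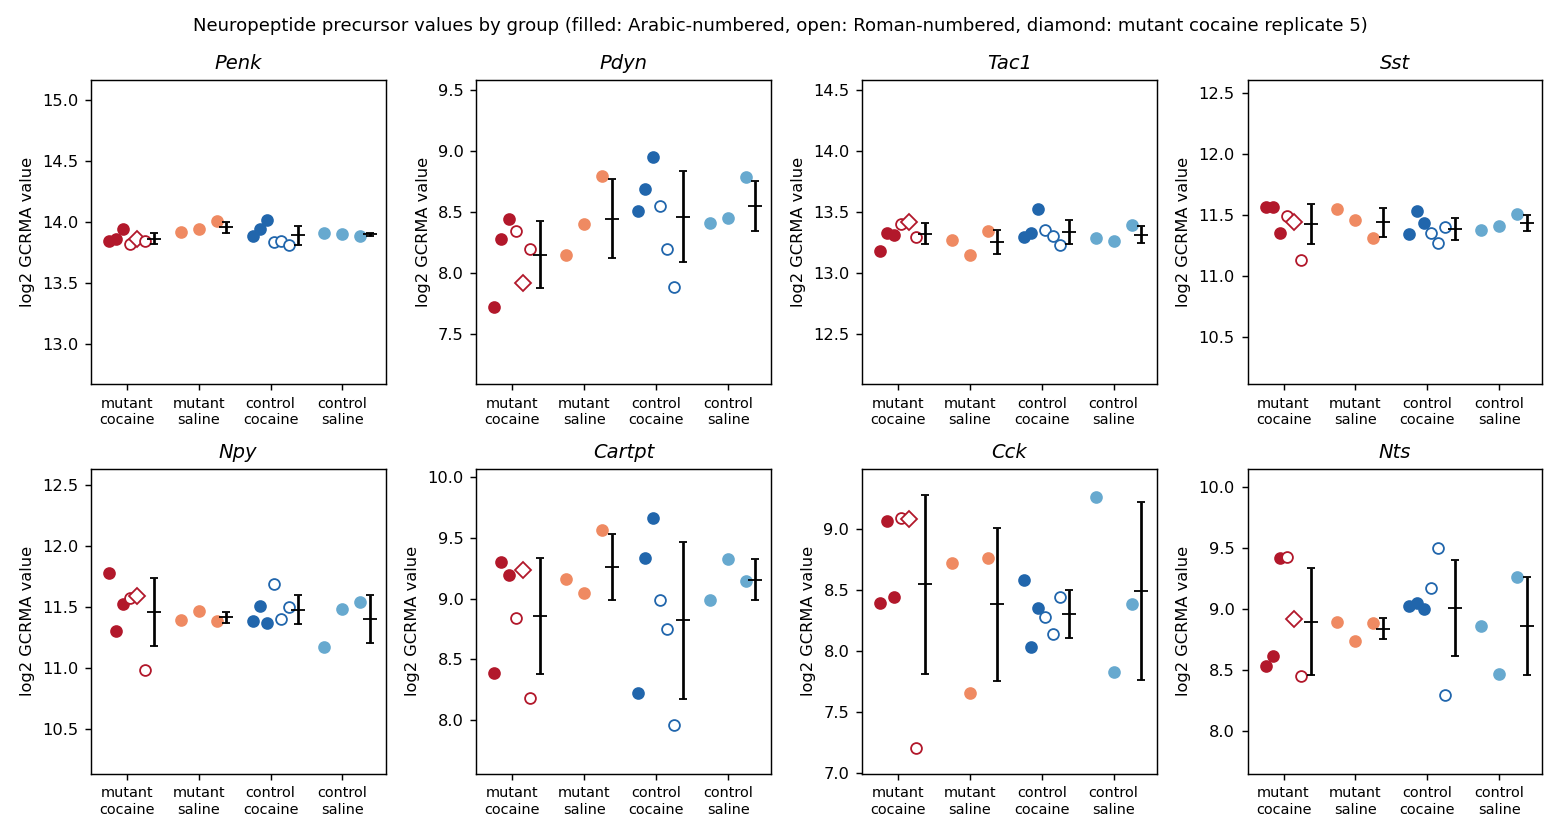
Log2 GCRMA value of each precursor on the vertical axis in mutant cocaine, mutant saline, control cocaine and control saline mice, with 1 point per animal and bars for the mean ± SD. Filled points are Arabic-numbered and open points Roman-numbered animals, the diamond is mutant cocaine replicate 5, and each panel spans its own levels. Cocaine and saline animals overlap in all 8 panels, and the points of Penk lie closer together than those of Cck or Cartpt.

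Penk (probe set 1427038_at) encodes proenkephalin, the precursor of the enkephalins in the indirect pathway. Its log2 values were 13.82, 13.85 and 13.94 (lowest, median and highest of 6) in mutant cocaine mice, against 13.92, 13.94 and 14.00 in mutant saline mice. In control mice they were 13.81, 13.86 and 14.02 after cocaine (lowest, median and highest of 6) and 13.91, 13.90 and 13.89 after saline. Cocaine and saline animals overlapped in both genotypes, and after saline all 3 mutant values lay above all 3 control values. The averaged cocaine difference was -0.01 ± 0.03 (SE), with a 95% interval of -0.07 to 0.05, which is 0.954- to 1.03-fold (limma adjusted p = 0.952). Mutant minus control was 0.06 ± 0.04 after saline (limma adjusted p = 1.00). Groups that do not overlap in that comparison were also seen in 11.7% of all tested probe sets. In a bulk tissue fewer cells of a type and less RNA per cell cannot be told apart, here and for every member.

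Pdyn (1416266_at) encodes prodynorphin, the precursor of the kappa opioid ligands of the direct pathway. Log2 values of its probe set were 7.72, 8.24 and 8.44 (lowest, median and highest of 6) in mutant cocaine mice, against 8.15, 8.40 and 8.79 in mutant saline mice. Control mice had 7.88, 8.53 and 8.95 after cocaine (lowest, median and highest of 6) and 8.41, 8.45 and 8.79 after saline. The lowest values were in cocaine animals of both genotypes, 7.72 in an Arabic-numbered mutant and 7.88 in a Roman-numbered control animal, and the groups overlapped. With an averaged cocaine difference of -0.07 ± 0.16 and an interval of -0.41 to 0.28 (0.755- to 1.21-fold), Pdyn did not pass the test (limma adjusted p = 0.952).

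Tac1 (1416783_at) encodes the precursor of substance P and neurokinin A, and is also a gene of the direct pathway. Its values were 13.18, 13.31 and 13.42 (lowest, median and highest of 6) in mutant cocaine mice, against 13.27, 13.15 and 13.34 in mutant saline mice. The control values were 13.23, 13.31 and 13.52 after cocaine (lowest, median and highest of 6) and 13.29, 13.26 and 13.39 after saline. All 4 groups overlapped within 0.37 log2 units. The averaged cocaine difference of Tac1 was 0.04 ± 0.05, with an interval of -0.07 to 0.15 (0.955- to 1.11-fold; limma adjusted p = 0.898).

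Sst (1417954_at) encodes somatostatin, an inhibitory peptide that in the striatum is made by a class of GABAergic interneurons. Its values were 11.13, 11.47 and 11.57 (lowest, median and highest of 6) in mutant cocaine mice, against 11.55, 11.46 and 11.31 in mutant saline mice. In control mice Sst had 11.27, 11.38 and 11.53 after cocaine (lowest, median and highest of 6) and 11.38, 11.41 and 11.51 after saline. The groups overlapped, and 1 mutant cocaine animal, replicate 6, lay below the others. The averaged cocaine difference for Sst was 0.03 ± 0.06, with an interval of -0.11 to 0.16 (0.929- to 1.12-fold; limma adjusted p = 0.947).

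Npy (1419127_at) encodes neuropeptide Y, made largely by the same interneurons as somatostatin. Its log2 values were 10.98, 11.55 and 11.78 (lowest, median and highest of 6) in mutant cocaine mice, against 11.40, 11.47 and 11.38 in mutant saline mice. They were 11.37, 11.45 and 11.69 in control cocaine mice (lowest, median and highest of 6), against 11.17, 11.48 and 11.54 in control saline mice. The highest and the lowest value were both in mutant cocaine animals. Its averaged cocaine difference was 0.07 ± 0.11 with an interval of -0.16 to 0.30 (0.898- to 1.23-fold; limma adjusted p = 0.913).

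Cartpt (1422825_at) encodes CART, whose name, cocaine- and amphetamine-regulated transcript, comes from work on rat striatum. Log2 values were 8.18, 9.02 and 9.30 (lowest, median and highest of 6) in mutant cocaine mice, against 9.16, 9.04 and 9.56 in mutant saline mice. Control mice had 7.97, 8.87 and 9.66 after cocaine (lowest, median and highest of 6) and 8.99, 9.33 and 9.14 after saline. The 4 lowest values were all in cocaine animals, 8.39 and 8.18 in mutant replicates 1 and 6 and 8.23 and 7.97 in control replicates 1 and 6, and 3 more cocaine animals, at 8.75, 8.84 and 8.99, also lay below the lowest saline animal. Of the other 5 cocaine animals, 4 lay within the saline range and control replicate 3, at 9.66, lay above it. The animals at 8.75, 8.84 and 8.99 and replicate 6 of each genotype are Roman-numbered, a series without saline animals. Roman-numbered minus Arabic-numbered cocaine animals gave -0.36 ± 0.25 for Cartpt. Among Arabic-numbered cocaine animals, only replicate 1 of each genotype, at 8.39 and 8.23, lay below the lowest saline animal. The averaged cocaine difference of Cartpt was -0.19 ± 0.25 with an interval of -0.72 to 0.35 (0.607- to 1.27-fold; limma adjusted p = 0.910).

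Cck (1419473_a_at) encodes cholecystokinin, which in the forebrain is made by many cortical and other neurons, among them glutamatergic ones that project to the striatum. Its values were 7.20, 8.75 and 9.09 (lowest, median and highest of 6) in mutant cocaine mice, against 8.72, 7.65 and 8.76 in mutant saline mice. In control mice they were 8.03, 8.31 and 8.58 after cocaine (lowest, median and highest of 6) and 9.26, 7.82 and 8.39 after saline. The 3 saline animals of each genotype spread over more than 1 log2 unit, and control cocaine animals lay inside the range of the control saline animals. The averaged cocaine difference of Cck was 0.04 ± 0.31, with an interval of -0.63 to 0.71 (0.648- to 1.63-fold; limma adjusted p = 0.986).

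Nts (1422860_at) encodes neurotensin, a peptide that modulates dopamine signalling. Its values were 8.45, 8.77 and 9.43 (lowest, median and highest of 6) in mutant cocaine mice, against 8.90, 8.74 and 8.89 in mutant saline mice. In control mice Nts had 8.30, 9.04 and 9.51 after cocaine (lowest, median and highest of 6) and 8.86, 8.47 and 9.27 after saline. Mutant cocaine animals fell on both sides of the narrow mutant saline range. The averaged cocaine difference of Nts was 0.09 ± 0.21, with an interval of -0.36 to 0.54 (0.782- to 1.45-fold; limma adjusted p = 0.949).

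The width of these intervals differed among the genes. For Penk, Tac1 and Sst the intervals ended at or above 0.929-fold and at or below 1.12-fold. Those of Cartpt and Cck ran from 0.607- to 1.27-fold and from 0.648- to 1.63-fold. A p that misses the threshold does not show that a gene did not change. For Cartpt and Cck, changes as large as those bounds were not excluded. Penk and Tac1 are bright, with means of 13.9 and 13.3 over the 18 arrays, against a highest array value of 15.4. Whether differences and spread are compressed at such levels was not tested.

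**Figure D2:**
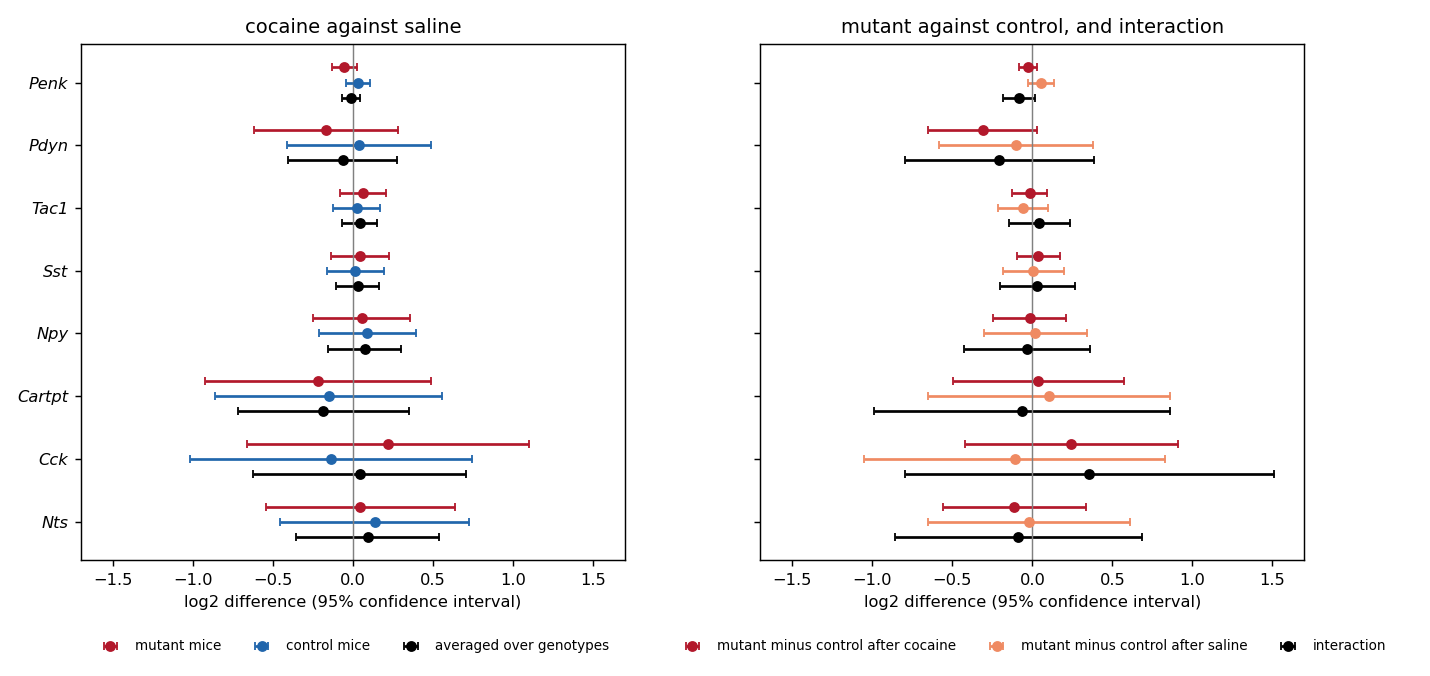
Difference in log2 value for each precursor with its 95% interval, in the comparisons of cocaine with saline and of mutant with control. Each interval crosses 0, and those of Cck and Cartpt are the widest.

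Within each genotype the result was the same in number. In mutant mice 0 of the 8 passed after cocaine, where 0.0473% of all tested probe sets did, and in control mice 0 of the 8, where 0.11% did. Their median cocaine difference was 0.04 in mutant mice and 0.03 in control mice, and the medians over all tested probe sets were -0.003 and 0.0006. None of the 8 had an unadjusted p under 0.05 in either genotype, against 881 probe sets (6.95%) in mutant mice and 330 (2.6%) in control mice. The ordinary linear model called 0 of the 8 in both. Penk differed by -0.05 ± 0.04 in mutant mice and 0.03 ± 0.04 in control mice. The difference between these responses, mutant minus control, was -0.09 ± 0.05 for Penk (limma adjusted p = 0.992), and its interval of -0.19 to 0.01 included 0. For Cck it was 0.35 ± 0.54, the largest of the 8, with an interval of -0.80 to 1.51 (limma adjusted p = 0.992). No precursor, and 0% of all tested probe sets, passed this interaction test, and 340 probe sets (2.68%) but none of the 8 had an unadjusted p under 0.05. The ordinary linear model called 0 probe sets in it. The interaction medians were -0.05 over the 8 and -0.014 over all.

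Mutant and control mice did not differ past the threshold for any of the 8 after either injection. After cocaine 0% of all tested probe sets passed, and 0 of the 8 had an unadjusted p under 0.05, against 1470 (11.6%) of all. The median of the 8 was -0.017, against 0.008 over all. After saline 0% passed as well, 0 of the 8 had an unadjusted p under 0.05 against 350 (2.76%) of all, and the medians were -0.009 and 0.014. The ordinary linear model called 0 probe sets in both. Without mutant cocaine replicate 6, the mutant minus control difference after cocaine was 0.53 ± 0.25 for Cck, against 0.24 ± 0.31 with it, 0.09 ± 0.08 for Npy, opposite in sign to -0.02 ± 0.11 with it, and 0.15 ± 0.26 for Cartpt, against 0.04 ± 0.25 with it. None of these passed the test, and the limma adjusted p of Cck was 0.317. The Cck interaction was 0.64 ± 0.42 without that animal. Penk after saline was the only member whose mutant and control animals did not overlap over all arrays of a comparison.

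Pdyn had the smallest unadjusted p of the 8 for mutant against control after cocaine. Its mean was 8.15 ± 0.28 in mutant cocaine mice and 8.46 ± 0.38 in control cocaine mice (SD, n = 6 each), and the difference was -0.31 ± 0.16 (limma unadjusted p = 0.0706, adjusted p = 0.439). In the Arabic-numbered animals the 3 mutant values of 7.72 to 8.44 lay below the 3 control values of 8.51 to 8.95, a difference of -0.57 ± 0.20 (limma adjusted p = 0.626). Such groups without overlap were seen in 12.1% of all tested probe sets. The value of 7.72 was in mutant cocaine replicate 1, the cocaine animal lowest in the mean of the 6 cocaine-responsive genes. In the Roman-numbered animals the means were 8.15 in mutant and 8.21 in control mice, a difference of -0.06 ± 0.20 (limma adjusted p = 0.917). After saline the Pdyn difference was -0.10 ± 0.23, and its interaction was -0.21 ± 0.28 (limma adjusted p = 0.992).

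The numbering series was compared among cocaine animals, and Penk had the smallest p of the 8. Roman-numbered minus Arabic-numbered animals gave -0.08 ± 0.03 for Penk (limma adjusted p = 0.0883), -0.25 ± 0.16 for Pdyn and -0.36 ± 0.25 for Cartpt. None of the 8 passed the test of the series, which 6.16% of all tested probe sets did. The sources used here do not say what the 2 numberings stand for, and saline animals are in the Arabic series only.

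The precursors differed in how much single animals varied. The residual SD, the spread left after group and series, was 0.0429 log2 units for Penk, and 0.836% of all tested probe sets had a smaller one. It was 0.603 for Cck, 0.483 for Cartpt, 0.401 for Nts and 0.303 for Pdyn, against a median of 0.159 over all tested probe sets, and 97.2%, 94.6%, 91.6% and 84.3% of them had a smaller one. Without mutant cocaine replicate 5 these shares were 99%, 97.9%, 96.9% and 92.3%, and that of Penk was 1.56%. Tac1, Sst and Npy had residual SDs of 0.0939, 0.116 and 0.203 over all arrays. Since spread can differ with level, each gene was also set against probe sets within 1 log2 unit of its mean, of which 14% had a smaller SD than Penk, 73.3% than Tac1, 59.1% than Sst, 90.5% than Npy, 90% than Pdyn, 95.8% than Nts, 97.5% than Cartpt and 98.4% than Cck. Over the 18 arrays the highest value was 1.15-fold the lowest for Penk and 4.18-fold for Cck.

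Animals that were high for 1 of Penk, Pdyn, Tac1 and Cartpt were often high for the others. After group and series were removed, Spearman's rho over the 18 arrays was 0.72 for Tac1 with Cartpt, 0.65 for Tac1 with Pdyn, 0.60 for Penk with Cartpt and 0.56 for Penk with Pdyn. Without mutant cocaine replicate 5 these were 0.74, 0.81, 0.54 and 0.68 in the same order. The points share dissection, RNA and array, so the values are a description. Without the 2 animals farthest out in Pdyn, rho for Tac1 with Pdyn was 0.51, and without the 2 farthest out in Cartpt it was 0.68 for Tac1 and 0.47 for Penk. Sst and Npy, which share interneurons, had a rho of 0.45 and Pearson's r of 0.63. These were 0.28 and 0.35 without mutant cocaine replicates 1 and 6, so this relation too was weaker without 2 animals. Penk and Sst ran in opposite directions with a rho of -0.41.

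**Figure D3:**
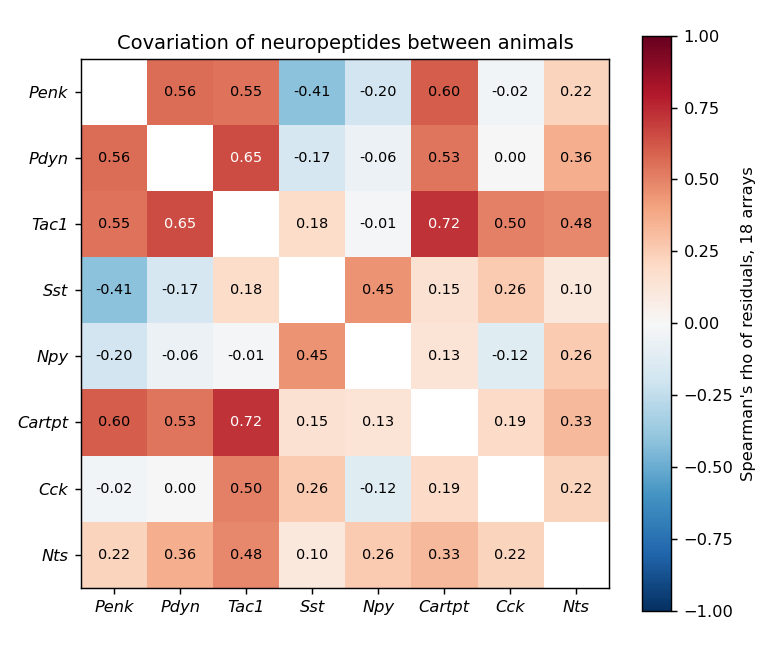
Spearman's rho between precursors over 18 arrays, from residuals after group and numbering series, with colour and printed value for each pair. The block of Penk, Pdyn, Tac1 and Cartpt holds the higher values, 0.53 to 0.72, and Penk with Sst holds the lowest, -0.41.

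Markers of the neurons that make the peptides were set against them in the same way, over residuals of 18 arrays. Drd2, the dopamine receptor of enkephalin neurons, had a rho of 0.40 with Penk, and Ptprm, the other indirect pathway marker tested, had -0.13. Isl1 and Ebf1, transcription factors of direct pathway neurons, had -0.15 and -0.43 with Pdyn and 0.05 and -0.34 with Tac1. Without mutant cocaine replicate 5, Tac1 had -0.11 with Isl1 and -0.54 with Ebf1. Nos1, the nitric oxide synthase found in somatostatin interneurons, had 0.49 with Sst and 0.21 with Npy. Lhx6, a transcription factor of that lineage, had 0.22 with Sst and 0.48 with Npy, and Chodl, another marker of these cells and dim on the array, had -0.04 with Sst and 0.07 with Npy. The markers of a class thus did not run alike with its peptides.

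Penk moved with the genes that respond to cocaine, although it did not pass the test of cocaine itself. With group and series removed, its rho with the mean of Fos, Egr2, Arc, Junb, Nr4a1 and Dusp1 was 0.79 over 18 arrays, and gene by gene it was 0.71 to 0.83. It was 0.77 without mutant cocaine replicate 5, and 0.70 without control cocaine replicate 3 and mutant cocaine replicate 1, the 2 animals farthest out. Control cocaine replicate 3 had the highest residual of both, 0.09 for Penk and 1.10 for the 6 genes, and mutant cocaine replicate 1 the lowest of both, -0.06 and -1.48. With the same mean Tac1 had a rho of 0.57, Pdyn 0.51, Cartpt 0.48, Cck 0.10, Nts -0.007, Sst -0.21 and Npy -0.39. The Penk residuals span less than 0.15 log2 units, and the 18 points share dissection, RNA and array, whose part in the relation was not tested.

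**Figure D4:**
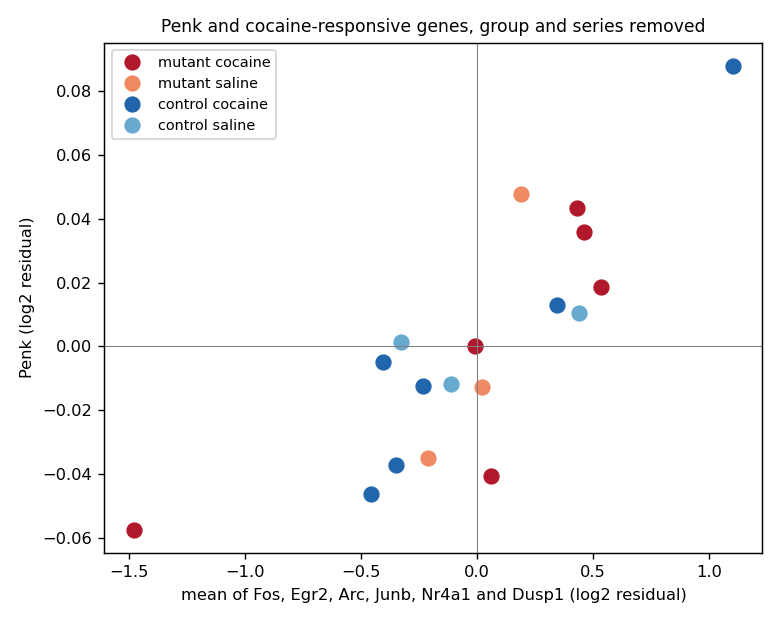
Residual of Penk (vertical, log2) against the mean residual of 6 cocaine-responsive genes (horizontal, log2) after group and numbering series were removed, 1 point per animal, coloured by group. Penk runs upward with the responsive genes, with mutant cocaine replicate 1 at the lower left and control cocaine replicate 3 at the upper right.

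Cck moved with Tbr1, a transcription factor of cortical glutamatergic neurons and not of striatal ones. Tbr1 was 3.17, 3.99 and 4.48 in mutant cocaine mice (lowest, median and highest of 6), against 4.15, 2.83 and 3.39 in mutant saline mice. In control mice it was 3.02, 3.39 and 3.72 after cocaine (lowest, median and highest of 6) and 5.11, 2.95 and 3.64 after saline. The saline animal lowest in Tbr1 was also the lowest in Cck in both genotypes, and control saline replicate 1 was the highest of all 18 arrays in both. The residuals of Cck and Tbr1 had a rho of 0.89 over 18 arrays, with and without mutant cocaine replicate 5. For the values themselves rho was 0.90, and 0.87 without control saline replicate 1 and mutant cocaine replicate 2. Mutant cocaine replicate 6, the lowest animal in Cck, was kept there. With Tbr1 as a term the residual SD of Cck was 0.305, against 0.603 without it.

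The cortical marker list, Tbr1 included, was near the floor of the array, where values are compressed. Of 8 listed genes, 6 were on the array and 1 passed the filter, Tbr1, which exceeded log2 4 in 5 of 18 arrays, and the summed linear signal of the 6 was 45.0 to 70.9 in mutant cocaine, 41.0 to 59.0 in mutant saline, 41.6 to 49.5 in control cocaine and 45.7 to 84.3 in control saline mice. Neurod6 had a rho of 0.79 with Cck and exceeded log2 4 in 2 arrays. Neurod1, Cux2, Fezf2 and Rorb, which exceeded it in 0 arrays, had 0.40, 0.37, 0.24 and -0.45. With Tbr1 in the model, a setting chosen after seeing the data, the Cck cocaine difference was 0.32 ± 0.22 in control mice and -0.17 ± 0.22 in mutant mice, both opposite in sign to the values without it, and neither passed the test. The smaller residual SD of Cck with Tbr1 is a description of these same arrays. The part of cortical tissue in the spread of Cck was not tested.

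**Figure D5:**
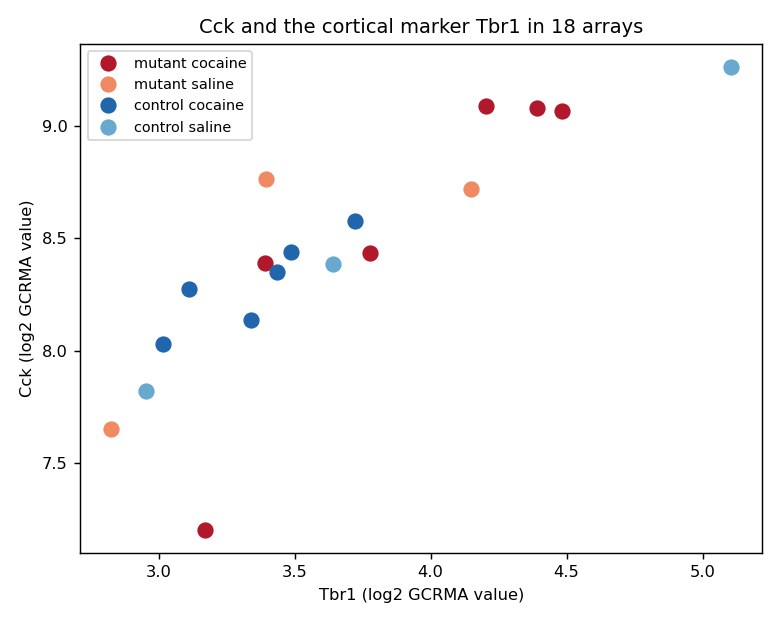
Cck (vertical, log2 value) against Tbr1 (horizontal, log2 value) in 18 arrays, coloured by group. Both run together across groups, from mutant saline replicate 2 and mutant cocaine replicate 6 at the low end to control saline replicate 1 at 5.11 and 9.26.

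The 2 genes whose residuals ran most like each precursor over the 18 arrays were taken from 7575 genes, as a description. For Penk they were Dhrs3 (rho 0.86) and R3hdm1 (0.84), and for Pdyn they were Pdcd6 (0.89) and Fn1 (0.83). Tac1 ran most like Agpat3 (0.82) and Dynlt3 (0.81), Sst like Ccn2 (0.79) and Mpp2 (0.77), and Npy like Pigk (0.87) and Ptcd2 (0.85). Cartpt was nearest to 2010204K13Rik and Tcn2 (0.88 each), Cck to Nr4a2 (0.90) and Tbr1 (0.89), and Nts to Pafah1b3 (0.86) and Pkib (0.84). The highest of 7575 values is high in any data, and without mutant cocaine replicate 5 Agpat3 was 18th for Tac1, Ccn2 26th for Sst and Tcn2 15th for Cartpt.

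Genes that act with these peptides were read beside them, and none passed the test in any of the 6 comparisons. Of 18 other neuropeptide precursors listed, 14 were on the array and 1 passed the filter, Tac2, the neurokinin B precursor, with an averaged cocaine difference of 0.12 ± 0.29. Of 17 receptors 9 were tested, with a median of 0.03. The brightest were Ntsr2, a neurotensin receptor, at 0.03 ± 0.11 and Sort1, the neurotensin-binding sorting receptor sortilin, at -0.06 ± 0.06. The receptors with an unadjusted p under 0.05, named after their values were seen, were Npy2r at 0.60 ± 0.15, Sstr2 at 0.55 ± 0.16 and Npy5r at -0.28 ± 0.10, with limma adjusted p of 0.181, 0.535 and 0.853. An unadjusted p under 0.05 was found for 3 of the 9 receptors and for 5.09% of all tested probe sets. Npy2r and Npy5r bind neuropeptide Y, and Sstr2 binds somatostatin.

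Of 15 processing and dense-core vesicle genes 10 were tested, with a median of -0.007, including Cpe, the carboxypeptidase that trims the cut peptides, at 0.01 ± 0.05 and Scg2, a vesicle granin, at -0.06 ± 0.10. Of 8 peptide-degrading enzymes 6 were tested, with a median of 0.08, including Mme, the enkephalin-cleaving neprilysin, at -0.02 ± 0.13 and Ece1, an endothelin-converting enzyme, at 0.13 ± 0.07. Markers of the neurons that hold the peptides gave the same count of calls. Ppp1r1b and Pde1b, shared by spiny neurons, differed by 0.01 ± 0.03 and -0.01 ± 0.04. Isl1 and Ebf1 of the direct pathway differed by 0.04 ± 0.09 and 0.21 ± 0.13, and Drd2 and Ptprm, listed for the indirect pathway, by -0.01 ± 0.07 and -0.04 ± 0.10. Gad1 and Gad2, the brightest of the interneuron list, differed by -0.03 ± 0.04 and -0.10 ± 0.32, but they make GABA in spiny projection neurons as well. Nos1 and Lhx6 of the somatostatin interneurons differed by -0.006 ± 0.12 and 0.09 ± 0.08, Pvalb, of fast-spiking interneurons, by 0.04 ± 0.21, and Chodl, Calb2, Th and Kit lay between -0.10 and 0.14. Zic1 and Prkcd, listed for septum and thalamus, differed by 0.35 ± 0.19 and 0.08 ± 0.16, and Tbr1 by -0.04 ± 0.33.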

How the data were processed

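Striatal RNA of 18 mice was measured on Affymetrix arrays, 1 per animal. The deposited log2 values were made by the authors with GCRMA in R 2.4.1, per the submitters' processing notes; the sources used here state no settings or probe positions. GCRMA equalises array distributions and compresses dim probe sets, so small levels understate change, and the number of arrays limits precision. After 64 control probe sets were left out, 12674 probe sets above log2 4 in at least 3 arrays were fitted with limma 3.58.1 in R 4.3.3 on the 4 groups and the numbering series, with a variance trend and two-sided tests adjusted by Benjamini-Hochberg. All members were named, together with the 2 brightest genes of each list and the 2 most similar genes of each member. Of the tested probe sets, 11749 carried 1 symbol. Groups came from the titles. The members and lists were chosen with earlier results of these data known. The labels do not state whether replicate numbers pair the samples, and they were not a term in the main fit. Alternatives changed the series term, arrays, block, filter, normalization, weights and variance model, and left out each array in turn. The code was checked on simulated data.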

Additional observations from a re-analysis of the deposited data

Results flagged for a closer look

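For the 8 precursors in both cocaine groups, 16 sets of 6 animals, the gap between the most extreme animal and its nearest neighbour was set against the group's range by Dixon's criterion, which chance meets in about 1 in 20 groups of values. In mutant cocaine mice Penk was 13.94 in replicate 3, above the other 5 animals, of which the nearest was at 13.86. In mutant cocaine mice Cck was 7.20 in replicate 6, below the other 5, of which the nearest was at 8.39. Tbr1 was also at its lowest of the group in that animal, at 3.17. Its value in the brightest Camk4 probe set, 7.69, lay inside the range of all control mice but below the Roman-numbered ones, at 7.72 to 7.76.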

How the results depend on the processing

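In 6 comparisons and under 28 alternatives, 18 of which left out 1 array each, 0 of the 8 precursors passed the test, and the lowest adjusted p was 0.294 (limma), for Pdyn after cocaine without mutant cocaine replicate 4. None of the differences whose sign turned had passed the test, and the cause was not tested. Without the series term the averaged cocaine difference was -0.031 for Sst and -0.012 for Cck, in control mice -0.0080 for Penk, -0.087 for Pdyn and -0.046 for Sst, and in mutant mice -0.016 for Sst. In Arabic-numbered arrays alone mutant against control after cocaine was 0.11 for Npy and -0.11 for Cartpt, and the interaction -0.053 for Tac1 and 0.096 for Npy. Quantile normalization gave -0.0034 for Sst after saline. Centring each array on its median gave 0.011 for Penk averaged over genotypes, 0.013 for Nts after saline, and after cocaine 0.011 for Penk, 0.024 for Tac1 and 0.023 for Npy. Array weights gave -0.021 for Cck averaged over genotypes, -0.041 for Nts in mutant mice, 0.042 for Nts after saline, -0.10 for Cartpt after cocaine and an interaction of -0.00556 for Tac1. With Tbr1 as a term, chosen after seeing the data, Cck was 0.32 in control mice, -0.17 in mutant mice, 0.26 after saline, -0.22 after cocaine and -0.48 in the interaction.

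Residuals of same-numbered replicates had mean correlations of 0.08, -0.03 and -0.03 in the Arabic series and 0.34, -0.39 and 0.07 in the Roman one. The pair at -0.39 holds mutant cocaine replicate 5. Each block of consecutive Arabic numbers held an animal of every group, and their mean correlations were 0.02, -0.03 and 0.14. The Roman blocks are the same pairs as the replicate numbers. Weak correlations cannot exclude a pairing, and the labels do not state one. With the replicate block 0 of the 8 passed in the 6 comparisons, and 25, 10 and 1 of all probe sets passed for cocaine averaged over genotypes, in control mice and in mutant mice. With blocks of consecutive animal numbers 0 of the 8 passed, and 16, 0 and 0 of all probe sets did in these comparisons.

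Leaving out each array in turn turned these differences about 0. For cocaine against saline averaged over genotypes the range was -0.14 to 0.23 for Cck, -0.028 to 0.19 for Nts, -0.15 to 0.058 for Pdyn, -0.031 to 0.0018 for Penk and -0.0026 to 0.058 for Sst. In control mice the cocaine difference was -0.37 to 0.10 for Cartpt, -0.47 to 0.25 for Cck, -0.022 to 0.16 for Npy, -0.064 to 0.34 for Nts, -0.081 to 0.16 for Pdyn, -0.015 to 0.052 for Sst and -0.040 to 0.062 for Tac1. In mutant mice it was -0.15 to 0.41 for Cck, -0.049 to 0.11 for Npy, -0.13 to 0.16 for Nts, -0.32 to 0.016 for Pdyn and -0.019 to 0.097 for Sst. Mutant against control was, after saline, -0.050 to 0.21 for Cartpt, -0.45 to 0.28 for Cck, -0.094 to 0.089 for Npy, -0.22 to 0.18 for Nts, -0.28 to 0.046 for Pdyn and -0.047 to 0.070 for Sst. After cocaine it was -0.14 to 0.18 for Cartpt, -0.086 to 0.085 for Npy and -0.041 to 0.025 for Tac1. The interaction was -0.24 to 0.086 for Cartpt, -0.033 to 0.69 for Cck, -0.11 to 0.076 for Npy, -0.29 to 0.11 for Nts, -0.033 to 0.083 for Sst and -0.0096 to 0.087 for Tac1.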
